A study of Mus musculus with 6 samples.

Results

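Expression of 7 genes of the Kv2 potassium channel family was compared between Sox6+ and Sox6- dopaminergic neurons of the mouse substantia nigra pars compacta (SNc). The genes were Kcnb2, Kcns1, Kcns2, Kcns3, Kcnv1, Kcng1 and Kcng3, chosen by symbol, and all 7 were found among the 23337 gene symbols of the deposited table. Of these, 4 had a mean normalized read count of at least 10 over the 6 libraries and were tested (Kcnb2, Kcns2, Kcns3 and Kcnv1), and 3 lay below that level (Kcns1, Kcng1 and Kcng3). Kcns2 reached it through its Sox6- mean alone. All libraries came from adult C57BL/6 mice carrying the alleles Th-2A-Flpo and Sox6-FSF-Cre with the reporter RC-Frepe. Flpo is made from the Th locus, Cre from the Sox6 locus only after Flpo has acted, and the reporter gives mCherry after Flpo alone and GFP after both recombinases, so the colours record past as well as present expression of Th and Sox6. Neurons sorted by GFP are called Sox6+ and those sorted by mCherry Sox6-, with 3 libraries each, numbered 103, 825 and 1211 in both groups. The labels do not say whether the libraries came from separate animals or pools, so each p-value reflects only how far these samples spread, which may be technical.

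Kv2 channels carry the delayed-rectifier potassium current that repolarizes the membrane after an action potential, and in many neurons they shape repetitive firing. Kcnb2 (Kv2.2) encodes a pore-forming subunit, which forms channels on its own. The Kv5, Kv6, Kv8 and Kv9 genes (Kcnf, Kcng, Kcnv and Kcns) encode silent subunits, which do not form working channels alone but join Kv2 subunits in mixed tetramers and change how these open, inactivate and recover. Kcns3 encodes the silent subunit Kv9.3.

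Kcns3 occupies positions 11090202 to 11151056 of the minus strand of chromosome 12 (GENCODE M21, GRCm38), and RefSeq lists a pair of start sites for it. The DNA at both is shown because Kcns3 had the smallest p (limma) of the tested genes of the set. The SOX sequence is marked because the reporter used for the sort records expression of Sox6. Control of Kcns3 by Sox6 was not tested. Each stretch runs 5′ to 3′ on the minus strand from 250 bases before the start to 20 bases after it (RefSeq, GRCm38.p6), at chr12:11150823-11151092 and chr12:11150354-11150623. Capitals mark matches to AACAAAG or AACAAT, short forms of the SOX recognition sequence, on either strand.
Kcns3 outer start: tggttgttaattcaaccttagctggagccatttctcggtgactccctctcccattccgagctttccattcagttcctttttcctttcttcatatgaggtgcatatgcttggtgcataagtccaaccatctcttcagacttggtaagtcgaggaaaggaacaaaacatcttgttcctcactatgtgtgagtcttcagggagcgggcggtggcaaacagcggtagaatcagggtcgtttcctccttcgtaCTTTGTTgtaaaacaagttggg
Kcns3 inner start: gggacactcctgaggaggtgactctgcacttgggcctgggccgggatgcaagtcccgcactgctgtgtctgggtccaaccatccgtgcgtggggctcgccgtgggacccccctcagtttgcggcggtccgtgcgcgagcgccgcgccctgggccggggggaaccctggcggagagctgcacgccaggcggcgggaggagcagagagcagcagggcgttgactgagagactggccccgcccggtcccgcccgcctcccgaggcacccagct
The outer window held 1 match, CTTTGTT, the reverse complement of AACAAAG, which begins 2 bases before the start site. The inner window held none. AACAAAG was found in 5.4% and AACAAT in 10.0% of 32851 promoter windows of the same length, so matches occur in many promoters, and a match is a description of letters and not of a binding site. The outer window had a GC content of 46.3% and the inner one of 73.0%. RefSeq windows were found for 3 of the 7 genes; those of Kcns1 and Kcng3 held no match.

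The libraries held from 10397924 to 12952768 recovered reads in genes. Sox6, the gene behind the sort, lay between 389.1 and 840.5 normalized reads in the Sox6+ libraries and between 18.1 and 103.6 in the Sox6- libraries. All 8 dopaminergic markers (Th, Slc6a3, Slc18a2, Ddc, Pitx3, Nr4a2, Lmx1b and En1) were detected, 7 of them in every library, and Lmx1b was at 0 in Sox6- library 103. Sox6+ library 825 stood apart on the first principal component, which took 50.8% of the variance. It held a summed level of 27911.7 for 6 microglia and macrophage markers, against at most 59.2 in any other library. Lyz2 made up 26494.1 of this sum. Tyrobp, Csf1r and Mrc1 were also highest in this library, at 1035.1, 58.1 and 322.25. C1qa was at 0 in it, and Cx3cr1 at 2.28, near the 2.01 of Sox6- library 825. The 5 GABAergic markers (Gad1, Gad2, Slc32a1, Pvalb and Sst) summed to 5.7 to 7070.4 in the Sox6+ and 4411.9 to 15551.0 in the Sox6- libraries. Oligodendrocyte markers summed to 1972.2 in Sox6+ library 825 and to at most 247.6 elsewhere, and astrocyte and endothelial markers to at most 75.8 and 22.3 in any library. The glutamatergic markers Slc17a6 and Slc17a7 summed to 162.8 to 999.3 in the Sox6+ and 2236.7 to 4815.2 in the Sox6- libraries. In bulk samples such as these, fewer cells of a type and less RNA per cell cannot be told apart.

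Kcns3 was the highest of the 7 genes in every library, both by normalized read count and per kilobase of exon. Its normalized read count was 1094.1, 1778.6 and 1071.0 in Sox6+ libraries 103, 825 and 1211, and 251.3, 439.1 and 141.0 in the Sox6- libraries in the same order. The lowest Sox6+ library was thus above the highest Sox6- library, with means of 1314.6 ± 402.1 and 277.1 ± 150.7 (SD, n = 3 each). The log2 difference, Sox6+ minus Sox6- on log2(value + 1), was 2.35 (SE 0.397), a 5.1-fold difference with a 95% interval of 1.44 to 3.26 on the log2 scale. Its adjusted p was 0.0592 (limma, Benjamini-Hochberg over 13175 tested genes), just outside the threshold of 0.05, with rank 61 of 13175 by p. An exact two-sided permutation test gave p = 0.1, below which no comparison of 3 against 3 libraries can go. Of the 4 tested genes of the set, limma called 0 at an adjusted p under 0.05, where it called 0.304% of all tested genes. Kcns3 was the 1 gene with an unadjusted p under 0.05 (limma), where 11.4% of all tested genes had one, and edgeR on the recovered reads also called 0 of the 4, with 0.0455% of all tested genes called. Sox6, the gene behind the sort, was not called by these fits either, with an adjusted p of 0.0528 (limma) and 0.158 (edgeR). DESeq2 on the recovered reads called Sox6 (adjusted p 2.21e-06). Kcns3 was also the 1 gene of the 7 whose groups did not overlap, where 17.0% of all tested genes did not overlap.

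**Figure D1:**
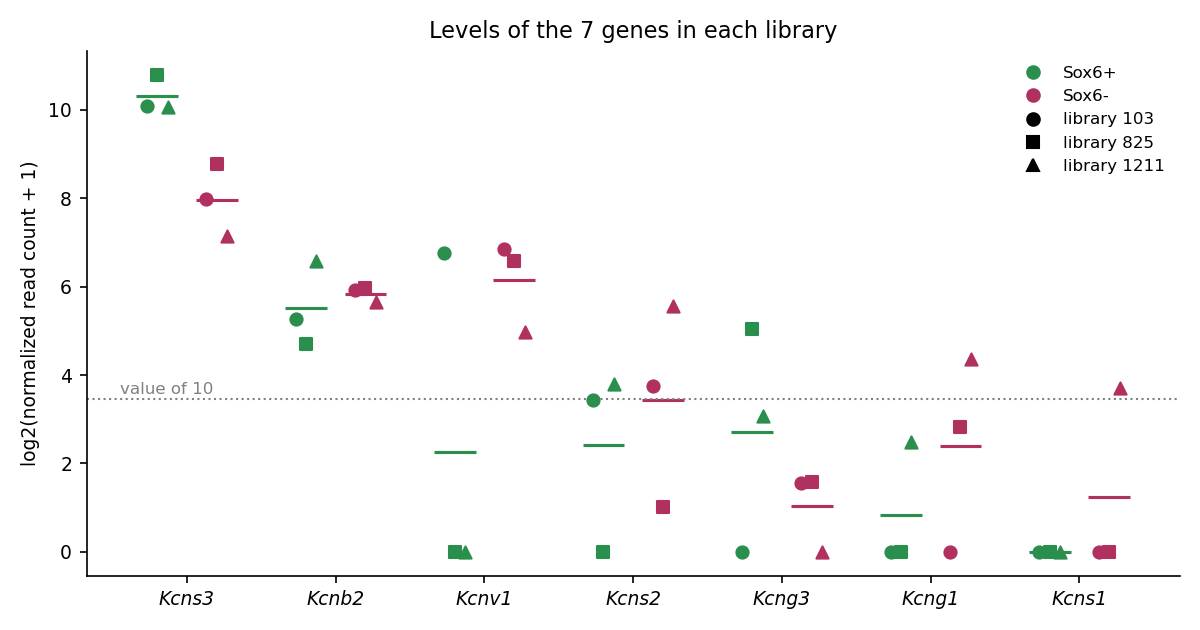
Normalized read counts of the 7 genes on a log2(value + 1) axis, 1 point per library (shape: library number; green: Sox6+; red: Sox6-), with bars at the group means and a dotted line at a value of 10. Kcns3 lay above the other 6 genes in every library, and its Sox6+ points (1071.0 to 1778.6) lay above its Sox6- points (141.0 to 439.1), while the other genes overlapped between groups.

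The size of the Kcns3 difference moved little and its call moved with the setting. In the authors' deposited table, made with DESeq2, Kcns3 was higher in Sox6+ neurons by a log2 fold change of 2.25 with an adjusted p of 3.83e-06, a table in which 1.25% of genes with an adjusted p were called higher. DESeq2 on the recovered reads also called it higher (adjusted p 5.38e-06, with 1.31% of genes called higher). EdgeR's quasi-likelihood test on the same reads did not (log2 difference 2.23, adjusted p 0.142). Limma called it with a pseudocount of 8 (adjusted p 0.0455, with 0.258% of genes called higher). It also did so without Sox6- library 825, the Sox6- library with the most Kcns3, where the log2 difference was 2.76 and the adjusted p 0.0295, with 0.106% of genes called higher. Without Sox6+ library 825, which held the high macrophage marker sum and the most Kcns3, the log2 difference was 2.11 (adjusted p 0.161). Between libraries of the same number it was 2.12, 2.02 and 2.92 for 103, 825 and 1211.

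**Figure D2:**
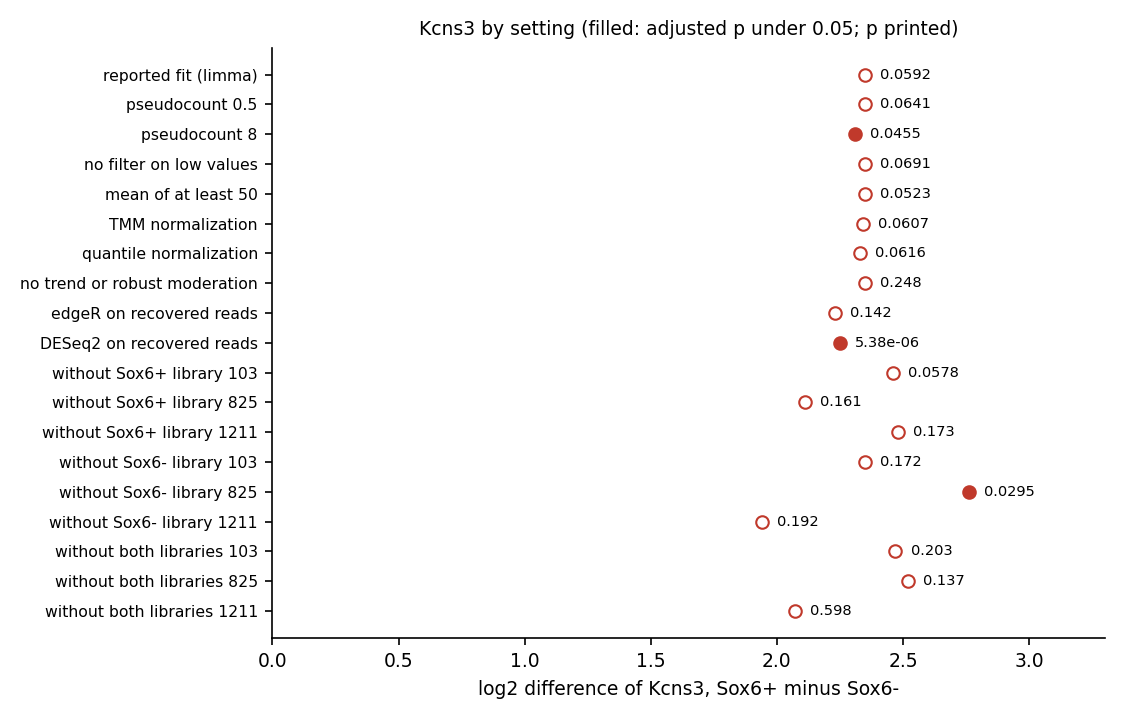
Log2 difference of Kcns3 (horizontal axis, Sox6+ minus Sox6-) under the reported fit and the 18 alternatives without a block for the library number, with the adjusted p printed beside each point and filled points under 0.05. The difference lay between 1.94 and 2.76 in these settings, and 3 of the 18 alternatives passed the threshold. The fits with that block are not plotted, and Kcns3 passed the threshold in them (adjusted p 0.002 with limma and 0.0149 with edgeR). They called 134 and 63 of all tested genes higher.

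Markers of dopaminergic neurons moved with Kcns3 in part. Their summed level was 102187.0, 198798.3 and 172636.4 in Sox6+ libraries 103, 825 and 1211 and 42000.3, 128076.3 and 37525.9 in the Sox6- libraries. In each group the library with the highest sum, 825, also had the most Kcns3. Sox6+ library 1211 held more of the sum than Sox6+ library 103 but slightly less Kcns3 (1071.0 against 1094.1). Nr4a2 differed little between the groups, with means of 2324.8 and 2073.5, and was highest in library 103 among the Sox6+ libraries. Per 1000 units of the summed markers, Kcns3 lay at 10.7, 8.95 and 6.2 in the Sox6+ libraries and at 5.98, 3.43 and 3.76 in the Sox6- libraries. The groups still did not overlap on this scale, but the log2 difference was 0.98 (exact two-sided permutation p = 0.1), less than that of Kcns3 itself. Relative to single markers, the groups overlapped for 4 of 7. Per 1000 units of Slc6a3, the dopamine transporter, Kcns3 lay at 48.0, 31.4 and 25.2 against 42.1, 18.4 and 24.6, with a log2 difference of 0.33 (exact permutation p = 0.4). The groups also overlapped relative to Slc18a2, Pitx3 and Ddc, with log2 differences of 0.78, 0.84 and 0.88 (exact permutation p = 0.2 each). They did not overlap relative to En1, Th and Nr4a2, with log2 differences of 1.33, 1.41 and 2.15 (exact permutation p = 0.1 each). After Benjamini-Hochberg adjustment over these 8 ratios, the exact permutation p were 0.2 for the sum, En1, Th and Nr4a2, 0.23 for Slc18a2, Pitx3 and Ddc, and 0.4 for Slc6a3. These ratios were chosen after the values were seen. The summed GABAergic markers ranged lower in the Sox6+ than in the Sox6- libraries, with overlap, and all of them but Slc32a1 were at 0 in the library with the most Kcns3, Sox6+ 825. The sum joins markers with different patterns. Pvalb, a marker of fast-spiking GABAergic neurons, lay at 400.5, 0 and 868.7 in the Sox6+ and at 60.4, 66.5 and 128.0 in the Sox6- libraries. Sst, the somatostatin gene, lay at 1.97, 0 and 0 against 3958.3, 3164.2 and 5814.1. Their part in the Kcns3 difference was not tested.

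**Figure D3:**
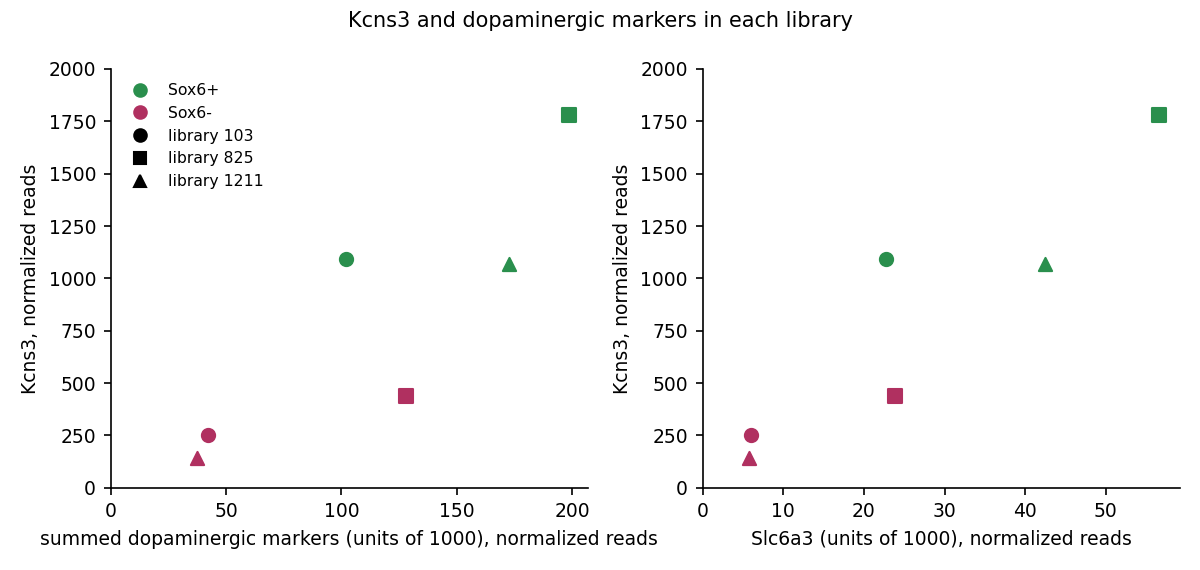
Kcns3 (vertical axes, normalized reads) against the summed level of 8 dopaminergic markers (left) and against Slc6a3 (right), both in units of 1000 normalized reads, 1 point per library (green: Sox6+; red: Sox6-; shape: library number). Sox6- library 825 held more of the summed markers than Sox6+ library 103 (128076.3 against 102187.0) and less Kcns3 (439.1 against 1094.1).

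The pore-forming Kcnb2 overlapped between the groups, and the 95% interval of its difference did not reach that of Kcns3. It lay at 37.5, 25.1 and 95.2 in Sox6+ libraries 103, 825 and 1211 and at 59.5, 61.4 and 49.2 in the Sox6- libraries. Sox6+ library 1211 was the highest of all 6 and Sox6+ library 825 the lowest, so the Sox6- values lay inside the Sox6+ range. The log2 difference was -0.32 with a 95% interval of -1.64 to 0.99 (adjusted p 0.865, limma), an interval that still allows a difference of several fold lower in Sox6+ neurons. Its sign turned without Sox6+ library 825, at 0.08.

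Within each library, Kcns3 was therefore set against the other genes as a log2 ratio, and 3 ratios were tested. Kcns3 over Kcnb2 was 4.83, 6.09 and 3.48 in the Sox6+ and 2.06, 2.82 and 1.5 in the Sox6- libraries, a difference of 2.67 without overlap. The difference was 6.24 for Kcns3 over Kcnv1, without overlap, and 3.38 for Kcns3 over Kcns2, with overlap. Kcnv1 was at 0 in Sox6+ libraries 825 and 1211 and Kcns2 in Sox6+ library 825, so the pseudocount of 1 sets the size of these ratios. With pseudocounts of 0.5 and 8 the difference was 6.9 and 4.33 for Kcnv1, and 3.59 and 2.9 for Kcns2 (exact permutation p = 0.3 and 0.1). The exact two-sided permutation p was 0.1 for the ratios to Kcnb2 and Kcnv1 and 0.3 for that to Kcns2, or 0.15 and 0.3 after Benjamini-Hochberg adjustment over the 3. Each of these differences is the log2 difference of Kcns3 less that of the other gene, so its size is no separate result. With 3 libraries a group no such ratio can pass 0.05.

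**Figure D4:**
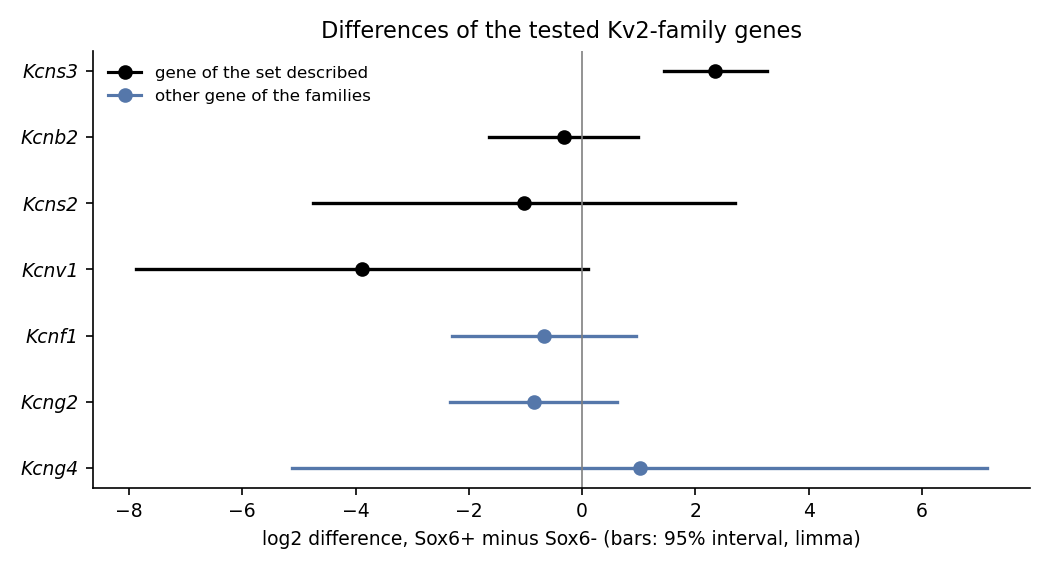
Log2 difference, Sox6+ minus Sox6-, of 7 tested genes of the Kv2 and silent-subunit families (black: tested genes of the set of 7; blue: other genes of the families), with 95% intervals from limma. The interval of Kcns3 (1.44 to 3.26) lay above 0, and those of the other 6 genes included 0.

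Per kilobase of merged exons, Kcns3 stood at 415.5 ± 127.1 in Sox6+ and 87.6 ± 47.6 in Sox6- neurons (normalized reads per kb, SD, n = 3 each). Kcnb2 stood at 3.47 and 3.74 on the same scale, so transcripts of this silent subunit were more abundant per length than those of the pore-forming Kcnb2 in both groups. Merged exons include long untranslated parts that need not be used in these neurons, which bears on Kcnb2, with 15.165 kb against 3.164 kb for Kcns3. Of the summed level per kb of the 7 genes, Kcns3 made up 92.6%, 98.1% and 96.6% in Sox6+ libraries 103, 825 and 1211 and 71.4%, 83.8% and 62.3% in the Sox6- libraries. The groups did not overlap in this share, which follows in part from the level of Kcns3 itself and depends on which genes are summed. With 4 further silent-subunit genes in the sum (Kcnf1, Kcng2, Kcng4 and Kcnv2), the share of Kcns3 was 68.2%, 96.4% and 86.4% in the Sox6+ and 42.6%, 73.8% and 31.8% in the Sox6- libraries, and the groups overlapped. Among the 7 genes, Kcnv1 took the next largest mean share in Sox6- neurons, at 14.8% ± 6.9, against 2.1% ± 3.6 in Sox6+ neurons (SD, n = 3 each). Among the 11 genes it took 9.7% ± 4.5 in Sox6- neurons, below Kcng2 at 16.9% ± 14.8 (SD, n = 3 each).

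**Figure D5:**
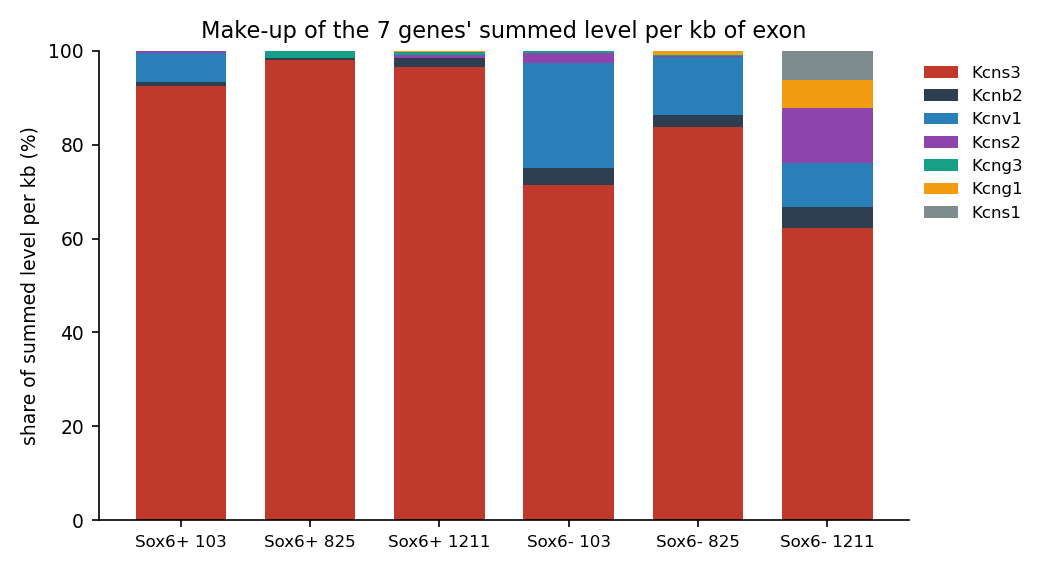
Share of each of the 7 genes in their summed level per kb of merged exon (vertical axis, %), 1 bar per library. Kcns3 filled at least 92.6% of each Sox6+ bar and at most 83.8% of each Sox6- bar.

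Among the other silent subunits, Kcnv1 (Kv8.1) was present in some libraries and listed at 0 in others. It lay at 107.5, 0 and 0 in Sox6+ libraries 103, 825 and 1211, and at 115.1, 94.7 and 30.6 in the Sox6- libraries. All 3 Sox6- libraries thus held Kcnv1, as did 1 of the 3 Sox6+ libraries, and the groups overlapped. A count of 0 allows up to 3 reads, which is worth 3.42 and 2.77 normalized reads in Sox6+ libraries 825 and 1211 and covers counting error only. The log2 difference was -3.89 (SE 1.75, adjusted p 0.447, limma). It rests on the zeros and on how they are scaled: edgeR on the recovered reads gave -1.16 (adjusted p 0.874). Without Sox6+ library 103 limma gave -6.14 with an adjusted p of 0.0453, where 0.774% of genes were called lower. Both remaining Sox6+ libraries are then at 0, so this value depends on the pseudocount and is no bound. Without both libraries 103 the adjusted p was 0.282 (limma, log2 difference -5.78). Gad1, which makes GABA, lay at 4797.5, 0 and 1244.8 in Sox6+ libraries 103, 825 and 1211 and at 7647.0, 508.6 and 2636.7 in the Sox6- libraries. In both groups library 103 had the most Kcnv1 and the most Gad1, Gad2 and Slc32a1. Gad2 was nearly level in Sox6- libraries 103 and 1211, at 3580.3 and 3522.4. Below library 103 the orders differed, as Sox6- library 825 held more Kcnv1 but less Gad1 than Sox6- library 1211. Sox6+ library 1211 held Gad1 but had Kcnv1 at 0. Pvalb was highest in library 1211 in both groups, and Sst in Sox6+ library 103 and Sox6- library 1211. Whether Kcnv1 reads came from GABAergic cells was not tested.

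Kcns2 (Kv9.2) lay at 9.87, 0 and 12.9 in Sox6+ and at 12.5, 1.01 and 46.4 in Sox6- libraries 103, 825 and 1211. Library 825 was the lowest in both groups, and Sox6- library 1211 the highest of all. Kcns2 was tested only because of its Sox6- mean of 19.95 ± 23.59, as its Sox6+ mean was 7.6 ± 6.76 (SD, n = 3 each). The log2 difference was -1.03 (SE 1.65, adjusted p 0.848, limma), and it turned sign, at 0.18 and 0.04, without Sox6+ library 825 or without Sox6- library 1211. Kcns1 (Kv9.1) was at 0 in 5 libraries and had 13 reads in Sox6- library 1211, a normalized read count of 12.1. Kcng1 (Kv6.1) was at 0, 0 and 4.62 in the Sox6+ and at 0, 6.04 and 19.5 in the Sox6- libraries. Its highest value, like those of Kcns1 and Kcns2, was in Sox6- library 1211. Kcng3 (Kv6.3) lay at 0, 31.9 and 7.39 in the Sox6+ and at 1.92, 2.01 and 0 in the Sox6- libraries. Of its 36 Sox6+ reads, 28 were in library 825, the library with the high macrophage marker sum. The part of macrophage transcripts was not tested. Kcns1, Kcng1 and Kcng3 were below the mean of 10 set for the test. In the authors' deposited table the adjusted p was 0.846 for Kcng1 and 0.609 for Kcng3, and Kcns1 had none.

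A further 4 silent-subunit genes gave 0 calls (limma, adjusted p under 0.05; 0 of 3 tested had an unadjusted p under 0.05, and edgeR and DESeq2 on the recovered reads called 0). Kcnf1 (Kv5.1) averaged 46.0 ± 35.0 in Sox6+ neurons and 68.7 ± 37.1 in Sox6- neurons, and Kcng2 (Kv6.2) averaged 40.3 ± 19.6 and 78.6 ± 55.7 (SD, n = 3 each). Kcng4 (Kv6.4) lay at 385.7, 0 and 55.4 in Sox6+ libraries 103, 825 and 1211 and at 152.5, 16.1 and 0 in the Sox6- libraries. As for Kcnv1 and Gad1, library 103 was the highest in both groups. Kcnv2 (Kv8.2) had no read in any library. The median log2 difference was -0.67 over the 3 tested genes of these 4, against -0.02 over all tested genes.

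Of 17 genes whose proteins bind or regulate Kv2 channels, all passed the filter and limma called 0. The list held Amigo1, an auxiliary subunit, Vapa and Vapb, which tether Kv2 clusters at contacts with the endoplasmic reticulum, and the calcineurin genes, whose product dephosphorylates Kv2 channels. The median log2 difference was -0.15, against -0.02 over all tested genes. An unadjusted p under 0.05 (limma) was found for 3 of the 17, against 11.4% of all tested genes, and 2 of the 17 (11.8%) did not overlap between groups, against 17.0%. EdgeR called 0, and DESeq2 on the recovered reads called 1, Ppp3ca, lower, where it called 1.66% of genes lower. Ppp3ca, a catalytic calcineurin subunit, lay at 1190.7, 1089.7 and 985.1 in Sox6+ and at 1822.8, 1457.2 and 3013.2 in Sox6- libraries 103, 825 and 1211. Every Sox6+ library was below every Sox6- library, with a log2 difference of -0.88 (SE 0.249, adjusted p 0.228, limma), and in the authors' deposited table its adjusted p was 0.0267. Ppp3cb, the other catalytic calcineurin subunit of the list, overlapped between groups, with a log2 difference of -0.15 (adjusted p 0.807, limma). Ppp3r1, a regulatory subunit, had a log2 difference of -0.48 (adjusted p 0.423, limma). Pitpnm2, a phosphatidylinositol transfer protein of these contacts, was at 74.2 ± 21.4 against 31.4 ± 10.5 (SD, n = 3 each), with an adjusted p of 0.417 (limma). Snap25 and Stx1a, SNARE proteins, had log2 differences of 0.34 and -0.49 (adjusted p 0.502 and 0.507, limma).

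A list of 13 Kv1 and Kv3 genes, which included the auxiliary subunit genes Kcnab1, Kcnab2 and Kcnab3, also gave 0 calls with limma. An unadjusted p under 0.05 (limma) was found for 3 of the 13, against 11.4% of all tested genes. EdgeR and DESeq2 on the recovered reads called 0 of the 13 as well. The median log2 difference of the list was -0.68. Of the 13, 4 (30.8%) did not overlap between groups, against 17.0% of all tested genes, 1 higher and 3 lower in Sox6+ neurons. Kcnc2 (Kv3.2), a channel of fast-spiking neurons, lay at 125.3, 88.8 and 219.9 in Sox6+ and at 378.0, 274.9 and 304.2 in Sox6- libraries 103, 825 and 1211. Its log2 difference was -1.22 (SE 0.36, adjusted p 0.236, limma), opposite in sign to that of Kcns3. Kcnc4 (Kv3.4) was at 104.1 ± 26.2 against 215.4 ± 64.8, and Kcna5 (Kv1.5) at 12.4 ± 16.1 against 101.6 ± 74.1 (SD, n = 3 each), with adjusted p of 0.317 and 0.278 (limma). Kcna6 (Kv1.6), at 359.6 ± 34.8 against 260.3 ± 62.8, was the gene higher in every Sox6+ library (adjusted p 0.504, limma). Kcnc1 (Kv3.1) had a log2 difference of -1.07 (adjusted p 0.517, limma).

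The genes whose pattern over the 6 libraries was most like that of Kcns3 were sought among 9745 genes with a mean of at least 50. Likeness was the root mean square difference between log2(value + 1) profiles, each centred on its own mean; the median over all genes was 1.33. The 5 nearest were Inhbb at 0.201, Nrip3 at 0.236, Galm at 0.261, Itgae at 0.284 and Ldoc1 at 0.309. Nrip3 lay at 4106.9, 6917.6 and 5095.5 in the Sox6+ and at 1399.7, 1483.4 and 598.2 in the Sox6- libraries. Like Kcns3, all 5 were highest in library 825 within each group, and Ldoc1 was the 1 of them past the threshold, with an adjusted p of 0.0172 (limma). The 5 were picked for likeness over these same 6 libraries, so a shared order and group difference follow largely from the choice. Kcnb2 and Kcnv1 ranked 7946 and 9664 in likeness to Kcns3, so no tested gene of the set with a mean of at least 50 followed its profile.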

How the data were processed

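The labels' protocols describe papain dissociation, RNA isolation and stranded mRNA libraries. Per the submitters' processing notes, the tools were STAR, HTSeq, DESeq2, FastQC and cutadapt and the build GRCm38 (mm10); the sources used here give no versions or settings. The authors deposited 1 table with a normalized signal per gene and library, which is the count of reads over that library's size factor. Beside it stand the authors' DESeq2 log2 fold change, its error, a score (the statistic of their test) and p-values. Reads were recovered by dividing by the value of 1 read (0.9241 to 1.1387): 100.0% of values above 0 were within 0.01 of a whole number. That value is 1.0071 in Sox6- library 825, too near 1 for an automatic check.

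Genes with a mean of at least 10 (13175) were tested with limma 3.58.1 (trend, robust) on log2(value + 1), 2-sided, without a block, with Benjamini-Hochberg adjustment at 0.05. That scale shrinks the ratio between low values. Where libraries at 0 stand beside others with reads, it can also give a larger difference than a count model does. Kcnv1 is such a gene, at -3.89 with limma against -1.16 with edgeR on recovered reads. Alternatives were other pseudocounts, filters, normalizations and moderation, edgeR 4.0.16 and DESeq2 1.42.0 on recovered reads (R 4.3.3), the library number as a block, and leaving out libraries. Single values were compared by exact permutation. The fit was tested on simulated counts. No library was a copy of another (chi-square of at least 34.4 per gene in each pair). Groups came from the sample titles. Exon lengths and positions are from GENCODE M21 (GRCm38), matched by symbol, and no exon of another gene overlapped those of the 7. 1 gene of the family is not reported here. Named were the other family genes, the 5 of smallest p in each related list and the 5 genes most like Kcns3. Ppp3cb was added as the other catalytic calcineurin gene beside Ppp3ca. The genes and lists were chosen with earlier results of these data known. Protein sequences were not used here.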

Additional observations from a re-analysis of the deposited data

How the results depend on the processing

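Over 20 alternatives the log2 difference of Kcns3 kept its sign, from 1.94 to 2.76, and its adjusted p ran from 5.38e-06 to 0.598. It was 2.35 with the library number as a block (adjusted p 0.002), 2.31 with a pseudocount of 8, 2.33 with edgeR and the block (adjusted p 0.0149) and 2.25 with DESeq2. In these 4 settings, and without Sox6- library 825, 1 of the tested genes of the set was past the threshold and higher. Over all tested genes these settings called 134, 34, 63, 171 and 14 higher, in the order given. Leaving out libraries gave 1.94 to 2.76 for Kcns3, 0 to 1 genes of the set called in each direction, and 1 lower, Kcnv1, without Sox6+ library 103 but not without both libraries 103. Leaving out libraries moved Kcnb2 from -0.96 to 0.14 and Kcns2 from -2.24 to 0.18. Kcnb2 turned sign without Sox6+ library 825 (0.08) and without both libraries 825 (0.14), and Kcns2 without Sox6+ library 825 (0.18) or Sox6- library 1211 (0.04). Kcns2 has no value with the filter at 50. The differences in the ratios of Kcns3 to other genes kept their sign with pseudocounts of 0.5 and 8, and so did Kcns3 relative to each dopaminergic marker tried.

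Over all genes, 17 higher and 23 lower became 134 and 133 with the block, 34 and 35 with a pseudocount of 8, 7 and 14 without a filter, 30 and 39 with quantile normalization, 1 and 5 with edgeR, 63 and 57 with edgeR and the block, and 171 and 216 with DESeq2. Without trend or robust moderation 4 were higher. Leaving out libraries gave 0 to 59 higher and 1 to 102 lower. The labels do not say what a shared number marks. Deviations from the group means correlated at 0.268, 0.172 and 0.079 for pairs 103, 825 and 1211 over 13175 genes, each library best with its own number, a hint from the data and not the design. Depth was least for Kcns1, Kcng1 and Kcng3, with 4 to 36 reads in the groups that held any.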

Other observations

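Further down the order of likeness to Kcns3 stood a pair of other potassium channel genes, named after their values were seen. Kcnj6, the GIRK2 channel subunit that couples to the dopamine autoreceptor, ranked 8 of 9745 with a root mean square difference of 0.388 on the log2 scale. It lay at 309.8, 880.2 and 599.7 in Sox6+ libraries 103, 825 and 1211 and at 126.6, 302.1 and 66.8 in the Sox6- libraries. The groups nearly met, as Sox6- library 825 held almost as much as Sox6+ library 103 (adjusted p 0.247, limma). Kcnn3, the SK3 calcium-activated channel, ranked 10 at 0.393, with 206.2, 493.1 and 414.9 against 41.3, 112.8 and 36.2 and an adjusted p of 0.079 (limma). Sncg, gamma-synuclein, ranked 6 at 0.318. All of them, like Kcns3, were highest in library 825 within each group, where the summed dopaminergic markers were also highest. As they were picked for likeness to Kcns3 over the same libraries, their shared order follows largely from the choice.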
